A study of Mus musculus with 8 samples.

Results

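Interferon-induced antiviral effectors are the proteins by which a cell blocks the growth of a virus after it has sensed viral nucleic acid or received interferon. Sensors such as RIG-I and MDA5 lead to the production of type I interferons, which bind their receptor on the cell surface and activate a complex of transcription factors. This complex binds a promoter element, the interferon-stimulated response element (ISRE), and switches on a large set of genes, of which many encode effectors. Fibroblasts are a classical cell type for the study of this response.

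The genes described here are 10 rows of a deposited expression table of 875 genes, chosen by name: *Oas1a*, *Oas2*, *Oasl2*, *Mx1*, *Mx2*, *Rsad2*, *Cmpk2*, *Ifit3*, *I830012O16Rik* and *Ifi44*. RNA was sequenced, after depletion of ribosomal RNA, from mouse embryonic fibroblasts (MEFs) whose *EED* gene carries loxP sites around some of its exons; the cells came from a mid-gestation embryo, whose strain is not given in the sources used here. There were 4 groups of 2 libraries each: the parental *EED*-floxed cells (control), cells transduced with a lentivirus for human *EZHIP* (EZHIP), cells transduced with a lentivirus for H3.3 K27M (K27M), both selected with puromycin per the study's methods, and a line treated with a hit-and-run lentivirus for Cre recombinase, from which EED was deleted (EED-null). EZHIP, a protein of certain ependymomas, and H3 K27M, a histone mutant of gliomas, both inhibit PRC2, the complex that methylates lysine 27 of histone H3, and EED is a subunit that PRC2 requires. The comparison asks how these genes respond to the inhibitors and to loss of the complex. The EED-null line was a single clone, and the labels do not say that the libraries of a group came from separate cultures, so the errors and p-values measure the spread between libraries only. A treatment of the parental cells with an empty lentivirus is not given in the sources used here.

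The values are normalized expression values: the reads of a gene as estimated by RSEM, over a size factor of the library, without a correction for the length of the gene. The libraries had from 209390 to 424561 estimated reads in the table. A gene entered the table when its EZHIP and control values were 2-fold or more apart and EBSeq gave the difference a high posterior probability, so that contrast chose the genes and is described here without a test. The member nearest to this limit was *Rsad2*, at 2.11-fold. Of 12 fibroblast markers 2 were listed, of 4 endothelial and 4 epithelial markers 1 each, and of 9 immune markers 0. *Eed* itself is not listed, so its loss was not checked here.

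All 10 members had the same arrangement of libraries: both K27M libraries lay above both control libraries, which lay above both EZHIP and both EED-null libraries. Of all 875 listed genes, 9.71% had this arrangement. Since the table was selected on EZHIP against control and the members were picked with these values known, nothing is read from this count. The members differed from each other in how far they moved. From EED-null to K27M cells the ratio of the group means ran from 7.25-fold for *Cmpk2* to 351-fold for *Oas2*. The plot of all values by library shows that the groups were tight in K27M cells and most scattered in EED-null cells, where several genes rested on a few reads.

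**Figure D1:**
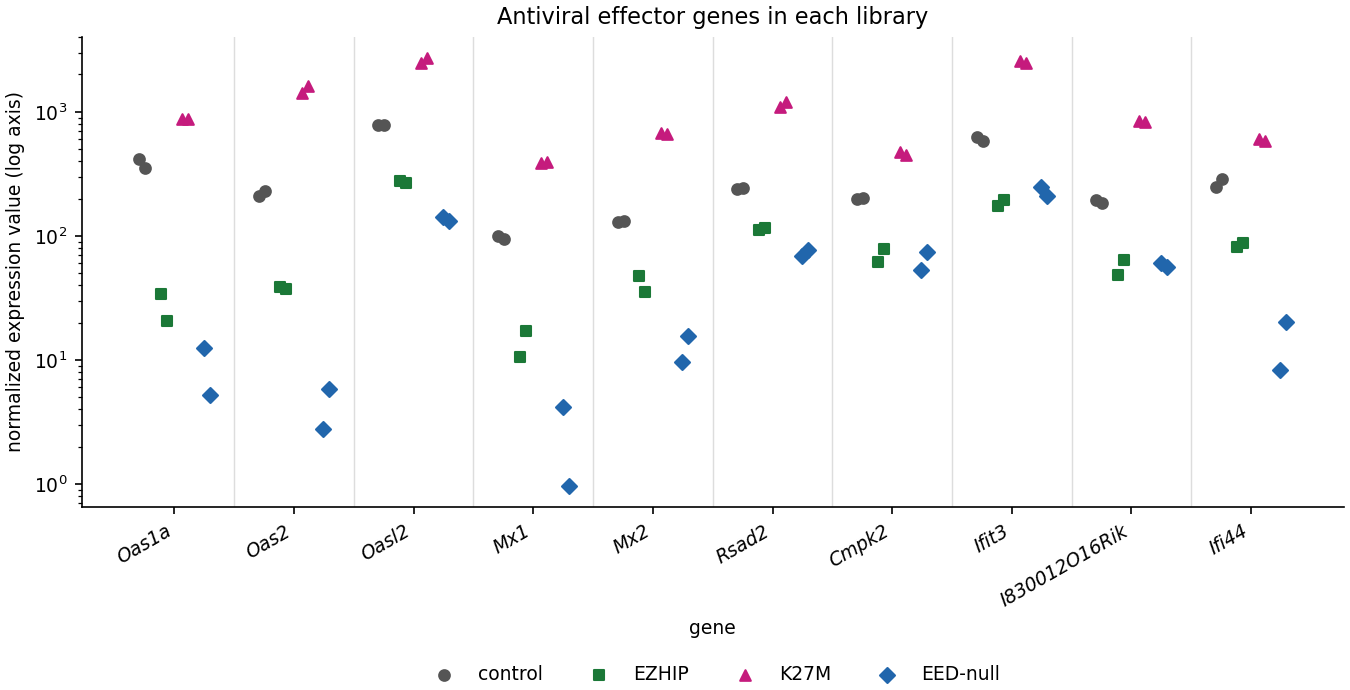
Normalized expression value (log axis) of the 10 antiviral effector genes, 1 point per library and 2 libraries per group. K27M points (triangles) are the highest and control points (circles) the next for every gene, while EZHIP (squares) and EED-null (diamonds) overlap for *Cmpk2* and *I830012O16Rik* only.

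The promoters of the members are shown first, because an ISRE usually lies close to the start of such genes. RefSeq promoter sequences of the GRCm38.p6 build were given for 7 of the 10 members, and not for *Oas2*, *Mx1* and *Mx2*. The 250 bases before the annotated start were searched on both strands for GAAANNGAAA, the core of the ISRE. The motif was found in 4 of the 7 promoters, and in 978 of 32851 promoters of the same length in the RefSeq table (2.98%). Among the other listed genes with a promoter in that table, 40 of 734 had it (5.45%). The promoters of *Ifit3* and *I830012O16Rik* are nearly identical, so their matches are not separate finds. A second motif, TTCNNNGAA, was searched in the same way. It was in 1 of the 7 promoters, that of *Oas1a*, beside 7.02% of all promoters and 5.59% of those of the other listed genes. The promoters with a match and that of *Cmpk2*, the neighbour of *Rsad2*, are printed 5′ to 3′ on the strand of the gene, with matches to GAAANNGAAA on either strand in capitals. They lie at chr5:120907526-120907775 (minus strand) for *Oas1a*, chr12:26456453-26456702 (minus) for *Rsad2*, chr12:26468965-26469214 (plus) for *Cmpk2*, chr19:34583279-34583528 (plus) for *Ifit3* and chr19:34607707-34607956 (plus) for *I830012O16Rik*, which RefSeq names *Ifit3b*.
Oas1a: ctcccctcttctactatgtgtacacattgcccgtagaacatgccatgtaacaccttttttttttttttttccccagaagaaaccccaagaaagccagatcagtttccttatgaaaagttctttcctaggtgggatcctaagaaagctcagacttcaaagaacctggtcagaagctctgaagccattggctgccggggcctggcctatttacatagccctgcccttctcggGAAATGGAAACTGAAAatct
Rsad2: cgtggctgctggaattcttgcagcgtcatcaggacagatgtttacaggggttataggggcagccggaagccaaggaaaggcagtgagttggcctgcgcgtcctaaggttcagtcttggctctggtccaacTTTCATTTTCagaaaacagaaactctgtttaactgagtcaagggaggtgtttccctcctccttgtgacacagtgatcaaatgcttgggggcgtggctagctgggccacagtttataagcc
Cmpk2: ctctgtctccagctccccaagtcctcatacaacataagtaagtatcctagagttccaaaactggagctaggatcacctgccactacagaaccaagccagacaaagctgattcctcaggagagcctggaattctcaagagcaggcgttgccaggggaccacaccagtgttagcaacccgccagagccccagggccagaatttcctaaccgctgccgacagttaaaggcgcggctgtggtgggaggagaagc
Ifit3: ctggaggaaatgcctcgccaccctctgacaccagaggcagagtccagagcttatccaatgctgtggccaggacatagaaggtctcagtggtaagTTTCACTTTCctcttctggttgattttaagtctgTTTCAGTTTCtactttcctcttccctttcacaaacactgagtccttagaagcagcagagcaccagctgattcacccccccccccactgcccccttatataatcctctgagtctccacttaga
I830012O16Rik: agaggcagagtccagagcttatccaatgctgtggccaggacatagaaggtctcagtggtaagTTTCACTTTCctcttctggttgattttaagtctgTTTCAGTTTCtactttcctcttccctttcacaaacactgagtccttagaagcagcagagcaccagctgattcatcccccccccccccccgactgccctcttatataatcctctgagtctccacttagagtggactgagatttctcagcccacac
Counted from the start, *Oas1a* had a pair of overlapping matches, at -20 to -11 and at -14 to -5, and *Rsad2* had 1 at -120 to -111. *Ifit3* and *I830012O16Rik* each had 2 matches, and their promoters were identical at 217 of 218 aligned bases, gaps left out. *Cmpk2*, *Oasl2* and *Ifi44* had no match in this window, which says only that these letters are not in it.

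The oligoadenylate synthetases make a short RNA-like messenger when they meet RNA of a virus, and this messenger activates RNase L, which degrades RNA. *Oas1a* (ENSMUSG00000052776.9) occupies bases 121346265 to 121357536 of chromosome 5 in mm9, on the minus strand. Its values were 419 and 354 in the control libraries, 34.3 and 20.7 with EZHIP, 869 and 874 with K27M, and 12.5 and 5.20 in EED-null. No groups overlapped, and *Oas1a* had the widest gap of all members between control and EZHIP cells, a 14.0-fold difference of the means. It rose in K27M cells by 1.18 (standard error 0.40, adjusted p = 0.0334 from limma) on the log2(value + 1) scale, among the smallest rises. It fell by 5.40 (standard error 0.40, adjusted p = 3.66e-05 from limma) in EED-null cells, a difference that ran from -5.96 to -4.84 with each library left out. The fit used a single spread per gene, shared by the 4 groups, so a gene had the same standard error in every comparison. The median standard deviation of the members in log2(value + 1) was 0.034 in K27M, 0.062 in control, 0.18 in EZHIP and 0.40 in EED-null cells. Errors for K27M against control thus include the wider scatter of the other groups, and those for EED-null may be too small. *Oas1a* shares 53.0% of the 50-base windows of its transcripts with its neighbour *Oas1g*, so the split of reads between them is uncertain.

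*Oas2* (ENSMUSG00000032690.9) lies on the same strand of chromosome 5, from 121180342 to 121199862, and encodes a larger synthetase. It was at 210 and 229 in control, 39.1 and 37.6 with EZHIP, 1411 and 1606 with K27M, and 2.77 and 5.81 in EED-null libraries, again without overlap. This was the widest span of the 10 genes, with a rise of 2.77 (standard error 0.27, adjusted p = 0.000143 from limma) in K27M cells, which is 6.87-fold by the means. The EED-null libraries held 2 and 6 estimated reads. From the pooled reads, *Oas2* was 48.5-fold lower there than in control cells, with a 95% interval of 24.4 to 113 (exact Clopper-Pearson, counting error only). No window of its transcripts was shared with another gene.

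*Oasl2* (ENSMUSG00000029561.10, chromosome 5, 115346943 to 115362243, plus strand) encodes an OAS-like protein with ubiquitin-like repeats. It was among the most abundant and the most even of the members, at 789 and 788 in control, 275 and 269 with EZHIP, 2498 and 2709 with K27M, and 141 and 131 in EED-null libraries. Each group stood clear of the others. Its profile over the 8 libraries was also the closest to the mean of the other members, with a Pearson's r of 0.999 as a description. The rise in K27M cells was 1.72 (standard error 0.10, adjusted p = 1.46e-05 from limma), and in EED-null cells *Oasl2* fell by 2.53.

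The Mx proteins are dynamin-like GTPases that block the replication of viruses, MX1 in the nucleus and MX2 in the cytoplasm of mouse cells. Many laboratory strains carry defective *Mx* alleles, and RefSeq lists both genes of the C57BL/6J genome as transcribed pseudogenes, while the mm9 annotation gives them as protein coding. *Mx1* (ENSMUSG00000000386.8, chromosome 16, 97668642 to 97684514, minus strand) was the lowest member, at 99.0 and 93.6 in control, 10.7 and 17.1 with EZHIP, 390 and 397 with K27M, and 4.16 and 0.969 in EED-null libraries. The EED-null values stand for 3 reads and 1 read. By the pooled reads, *Mx1* was 42.0-fold lower there than in control cells, with a counting interval of 16.2 to 155. *Mx2* (ENSMUSG00000023341.8, 97757690 to 97782506, plus strand) was at 128 and 133 in control, 47.3 and 35.3 with EZHIP, 670.3 and 666 with K27M, and 9.70 and 15.5 in EED-null libraries. Neither gene had overlapping groups. In K27M cells *Mx1* rose by 2.02 (standard error 0.45, adjusted p = 0.00646 from limma) and *Mx2* by 2.35 (standard error 0.23, adjusted p = 0.000158 from limma). In EED-null cells *Mx1* fell by 4.93 and *Mx2* fell by 3.31. The *Mx1* difference was -5.63 without EED-null replicate 1 and -4.24 without EED-null replicate 2, and that of *Mx2* ran from -3.62 to -3.00 with each library left out.

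*Rsad2* encodes viperin, which makes a chain-terminating nucleotide, and *Cmpk2* encodes a nucleotide kinase that supplies its substrate. They lie back to back on chromosome 12 of mm9, *Rsad2* (ENSMUSG00000020641.8) from 27127618 to 27141317 on the minus strand and *Cmpk2* (ENSMUSG00000020638.7) from 27154069 to 27164700 on the plus strand, with 12752 bases between their starts and no coding gene in between. *Rsad2* was at 239 and 244 in control, 112 and 116 with EZHIP, 1093 and 1200.3 with K27M, and 69.3 and 77.5 in EED-null libraries. Its groups were all apart. *Cmpk2* was at 197 and 204 in control, 61.5 and 78.7 with EZHIP, 475 and 448 with K27M, and 52.7 and 74.6 in EED-null libraries, and here EZHIP and EED-null overlapped. In K27M cells *Rsad2* rose by 2.24 (standard error 0.11, adjusted p = 8.04e-06 from limma) and *Cmpk2* by 1.198 (standard error 0.20, adjusted p = 0.00166 from limma). In EED-null cells *Rsad2* fell by 1.71 and *Cmpk2* fell by 1.66.

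*Ifit3* and *I830012O16Rik* encode IFIT proteins, which bind viral RNA or the proteins that do, through tetratricopeptide repeats. *Ifit3* (ENSMUSG00000074896.3, chromosome 19, 34658021 to 34663221) and *I830012O16Rik* (ENSMUSG00000062488.8, 34682421 to 34687891) lie on the plus strand and share sequence: 51.5% of the 50-base windows of *Ifit3* and 38.3% of those of *I830012O16Rik* occur in the other. In none of the 8 libraries was either estimate a whole number of reads, within 0.005 of a read, so each value depends on how shared reads were divided and is uncertain. *Ifit3* was at 629 and 587 in control, 174 and 194 with EZHIP, 2561 and 2464 with K27M, and 246 and 211 in EED-null libraries. *Ifit3* was thus the only member whose EED-null libraries were both above its EZHIP libraries. *I830012O16Rik* was at 196 and 183 in control, 48.5 and 63.7 with EZHIP, 850.5 and 827 with K27M, and 60.5 and 56.0 in EED-null libraries, where EZHIP and EED-null overlapped. The rises in K27M cells were 2.05 for *Ifit3* (standard error 0.12, adjusted p = 1.66e-05 from limma) and 2.14 for *I830012O16Rik* (standard error 0.15, adjusted p = 2.93e-05 from limma). In EED-null cells *Ifit3* fell by 1.41 and *I830012O16Rik* fell by 1.69.

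*Ifi44* (ENSMUSG00000028037.7, chromosome 3, 151393886 to 151412911, minus strand) encodes a GTP-binding protein that is a common marker of the interferon response. It was at 246 and 288 in control, 81.7 and 87.8 with EZHIP, 599 and 586 with K27M, and 8.32 and 20.3 in EED-null libraries. The groups did not overlap. *Ifi44* had the smallest rise in K27M cells, 1.15 (standard error 0.36, adjusted p = 0.0262 from limma), and fell by 4.24 in EED-null cells (standard error 0.36, adjusted p = 7.31e-05 from limma). That difference was -3.65 without EED-null replicate 1 and -4.84 without EED-null replicate 2. These libraries held 6 and 21 estimated reads of *Ifi44*. Its profile was the least like the mean of the other members, with a Pearson's r of 0.930 over the 8 libraries.

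Against control cells, all 10 members rose in K27M cells by an adjusted p-value under 0.05 (limma, Benjamini-Hochberg over the 875 genes) and at least 2-fold, and 41.4% of all listed genes did so. The median of the members was 2.03 on the log2 scale, beside 0.58 over all listed genes. In EED-null cells all 10 fell, beside 25.1% of the listed genes, with a median of -2.92 against 0.40. In EZHIP cells all 10 were lower, with a median of -1.69 against 1.16 over all listed genes; 43.1% of the listed genes passed the same limits in that direction, from which nothing is read, since this contrast chose the table. These comparisons share the control libraries, which took part in choosing the table. The members were also picked with these values known, so the counts and p-values are not independent support. Rescaling the libraries on the listed genes lowered the median K27M difference of all genes by 0.43 and left 7 of the 10 rises called: *Oas1a* was then at 0.72, *Cmpk2* at 0.74 and *Ifi44* at 0.69. *Oas1a* and *Ifi44* also lost the call when any 1 of the control or K27M libraries was left out. Their differences with each library left out ran from 1.05 to 1.30 for *Oas1a* and from 1.04 to 1.26 for *Ifi44*. In a fit to the K27M and control libraries alone both were called, with standard errors of 0.13 and 0.12.

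**Figure D2:**
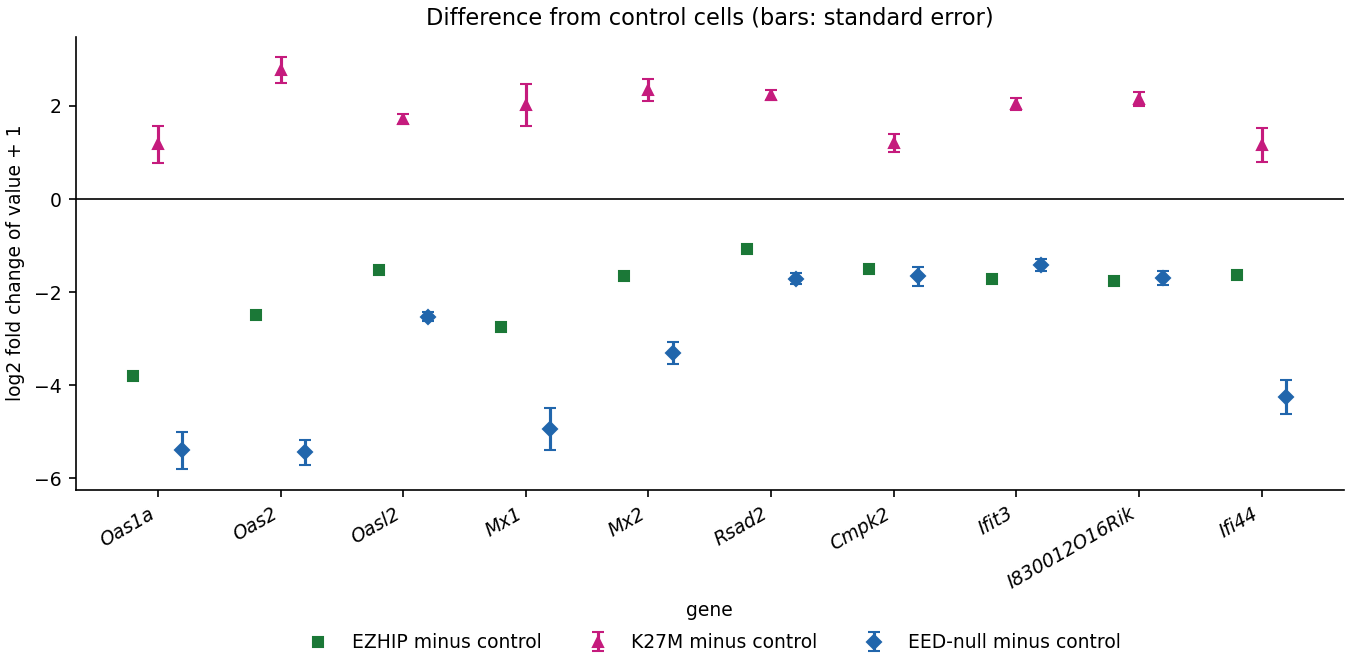
Log2 fold change of value + 1 against control cells for each gene with EZHIP, K27M and EED-null cells; bars are the standard errors from limma, and EZHIP has none because that contrast selected the table. K27M lies between 1.15 and 2.77 and EED-null between -5.44 and -1.41.

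K27M and EED-null cells took no part in the selection of the table. The members, however, were picked with their values in both groups known, so the count and p-values below are not independent support. All 10 members were higher in K27M cells, as were 27.8% of the listed genes. Adjusted p-values of the members from limma ran from 1.25e-06 to 3.92e-05. The log2 difference ran from 2.86 for *Cmpk2* to 8.21 for *Oas2*, with a median of 4.82, while the median of all listed genes was 0.0066. Between these ends stood *Ifit3* at 3.46, *I830012O16Rik* at 3.83, *Rsad2* at 3.95, *Oasl2* at 4.25, *Ifi44* at 5.39, *Mx2* at 5.65, *Oas1a* at 6.58 and *Mx1* at 6.95. Each of the 10 was called under every alternative and with each library left out, although the difference then ran from 6.26 to 7.65 for *Mx1* and from 4.80 to 5.99 for *Ifi44*, depending on which EED-null library was left out. Markers of fibroblasts and of other cell types also differed between these groups, and not all in the direction of the members. The fibroblast collagen gene *Col3a1* was at 2206 and 2517 in K27M libraries against 5733 and 5641 in EED-null, while *Dcn*, of the fibroblast matrix, was at 3192 and 3255 against 69.3 and 73.6. The endothelial gene *Kdr* was at 157 and 222 against 11.1 and 10.7, and the epithelial gene *Epcam* at 68.6 and 81.3 against 38.8 and 20.3. Their part in the result was not tested. In bulk RNA, fewer expressing cells and less RNA per cell cannot be told apart.

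EED-null and EZHIP cells were compared directly, since both lay below control. The EZHIP libraries took part in choosing the table, and the members were picked with these values known. The count and p-values below are thus not independent support. Here the members divided: 5 of the 10 were called lower in EED-null cells, beside 19.8% of the listed genes. *Oas2* fell by 2.96 relative to EZHIP cells (standard error 0.27, adjusted p = 0.000235 from limma). *Ifi44* fell by 2.60, *Mx1* by 2.19, *Mx2* by 1.66 and *Oas1a* by 1.60. These 5 are the members with the fewest reads in EED-null cells, between 4 and 27 over both libraries, while the other 5 had from 101 to 395. With each library left out, the difference ran from -3.38 to -2.53 for *Oas2*, from -3.20 to -2.005 for *Ifi44*, from -2.88 to -1.49 for *Mx1*, from -1.97 to -1.34 for *Mx2* and from -2.16 to -1.04 for *Oas1a*. The outer values of *Ifi44* and *Mx1* came from leaving out an EED-null library. *Oasl2* differed by -0.99 (adjusted p = 0.000337 from limma) and *Rsad2* by -0.63 (adjusted p = 0.00277 from limma), both less than 2-fold. No difference was called for the rest. For *Cmpk2* it was -0.15 with a 95% interval of -0.63 to 0.34, for *I830012O16Rik* 0.065 with an interval of -0.30 to 0.43, and for *Ifit3* 0.31 with an interval of 0.0055 to 0.61 (adjusted p = 0.0670 from limma). The call of *Oas1a* was lost without EZHIP replicate 1.

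**Figure D3:**
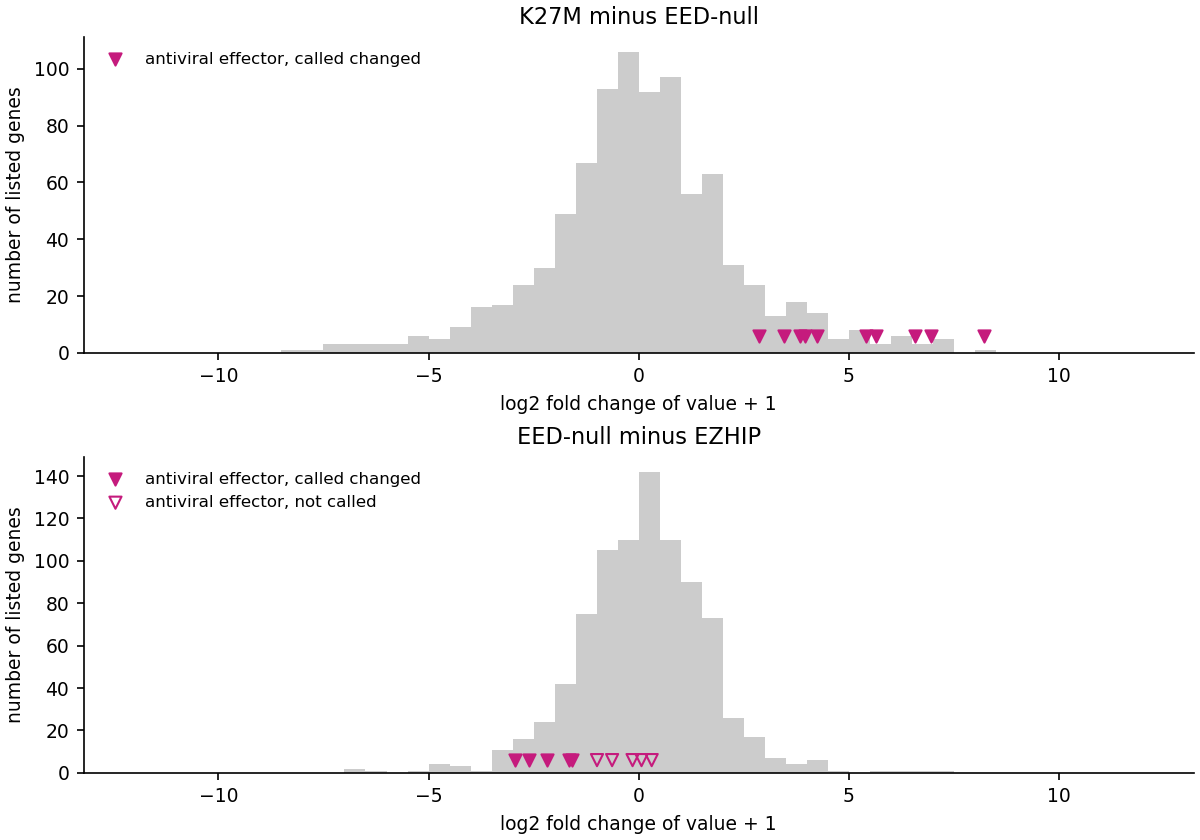
Histograms of the log2 fold change of value + 1 over all 875 listed genes for K27M minus EED-null (top) and EED-null minus EZHIP (bottom), with the 10 antiviral effectors as triangles, filled where called changed; the height of the triangles has no meaning. In the upper panel all 10 lie at 2.86 or more, and in the lower panel they spread from -2.96 to 0.31.

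For the members that sit near each other in the genome, the ratio within a pair was compared over the 4 groups. A ratio within a library is largely free of its size factor, and it was not used to choose the genes. The test, on the difference of log2(value + 1), was an exact permutation test over the 105 ways to split 8 libraries into 4 pairs, whose smallest p-value is 0.00952, adjusted over the 4 gene pairs. None (0) of the pairs passed after adjustment, and 1 had an unadjusted p-value under 0.05. That pair was *Rsad2* over *Cmpk2*. Its linear ratio was 1.21 and 1.199 in control, 1.83 and 1.48 with EZHIP, 2.30 and 2.68 with K27M, and 1.32 and 1.04 in EED-null libraries. Per kilobase of annotated exon, the mean level of *Rsad2* was 0.891 times that of *Cmpk2* in control cells and 1.84 times in K27M cells. Both K27M ratios exceeded those of all other libraries, while EED-null surrounded control (exact permutation p = 0.0286, adjusted p = 0.114). The adjusted p-value varied with the library left out, which leaves 1 library in a group, so nothing is read from it.

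*Ifit3* over *I830012O16Rik* had nearly the same ratio in control cells, 3.21 and 3.20, and in K27M cells, 3.01 and 2.98. It was 3.59 and 3.05 in EZHIP and 4.06 and 3.76 in EED-null libraries (exact permutation p = 0.0667, adjusted p = 0.133). These genes are 24400 bases apart by their starts, with 1 coding gene, *Gm14446*, between them. *Mx1* over *Mx2*, which point away from each other with 73176 bases between their starts and *Fam3b* in between, had a ratio of 0.772 and 0.703 in control and 0.582 and 0.595 in K27M libraries. In EZHIP libraries it was 0.225 and 0.484 and in EED-null libraries 0.429 and 0.0625, from 3 over 7 reads and 1 over 16 (exact permutation p = 0.152, adjusted p = 0.203). *Oas1a* and *Oas2* have 7 coding genes of the *Oas* cluster between them. Their ratio was 1.99 and 1.55 in control cells but below 1 in EZHIP cells, at 0.879 and 0.550, and in K27M cells, at 0.616 and 0.544. The EED-null libraries, at 4.50 and 0.895, were far apart, and no difference between the groups was called (exact permutation p = 0.229, adjusted p = 0.229). Here too the adjusted p-value varied with the library left out, and nothing is read from it.

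**Figure D4:**
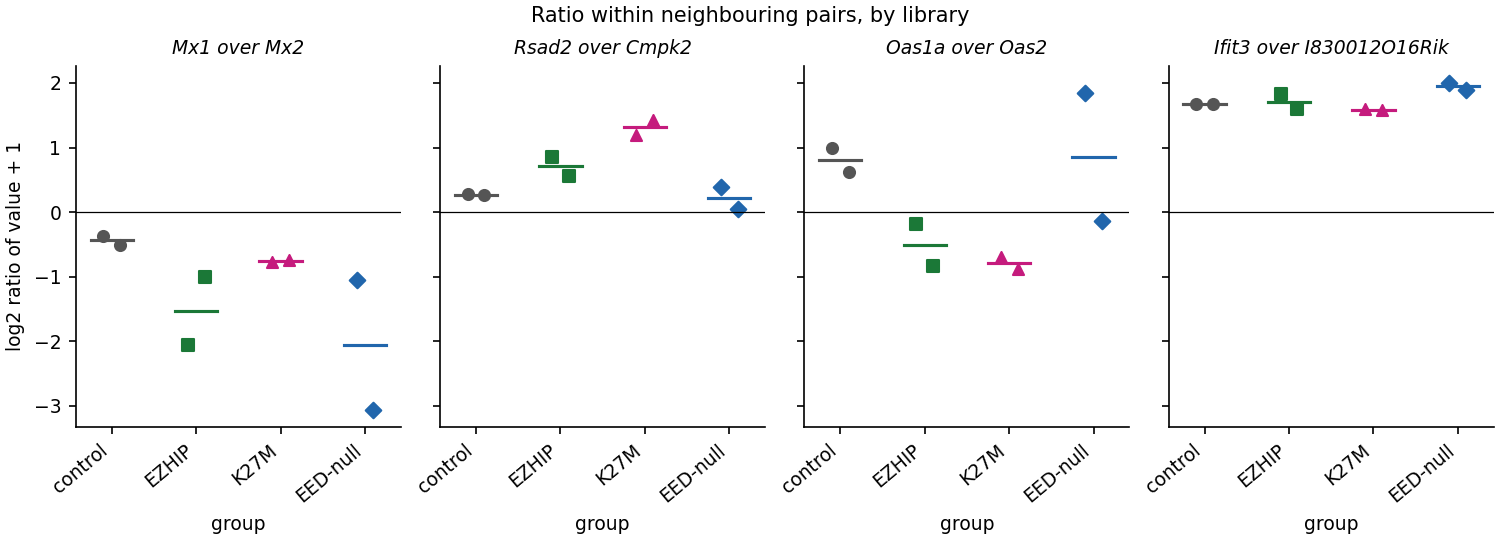
Log2 ratio of value + 1 within each of 4 neighbouring gene pairs, 1 point per library, with the group mean as a line. *Rsad2* over *Cmpk2* has its highest points in K27M cells, and the EED-null points are far apart for *Mx1* over *Mx2* and for *Oas1a* over *Oas2*.

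Of 92 further genes of the interferon pathway, 30 were in the table. The 7 ligands and receptors on that list were not among them. Over all listed genes, 41.4% were called higher in K27M and 25.1% lower in EED-null than in control cells, beside which the counts below stand. All 4 listed sensors fell in EED-null cells, and 1 of them, *Ifih1* (MDA5), rose in K27M cells. *Ifih1* was at 645 and 699 in control, 276 and 267 with EZHIP, 1683 and 1665 with K27M, and 173 and 155 in EED-null libraries. Of 6 signalling genes and regulators, 4 rose in K27M cells. They were *Irf7*, the transcription factor that amplifies interferon production, by 2.26, *Usp18*, which removes ISG15 and dampens receptor signalling, by 2.15, *Trim25*, a ubiquitin ligase that acts on RIG-I, by 1.62, and *Trim30a* by 1.01. Among these 6, 5 fell in EED-null cells, and *Trim25* differed there by -0.96. *Stat2*, a subunit of the factor that binds the ISRE, differed by 0.83 in K27M cells, under the 2-fold limit, and fell by 1.78 in EED-null cells.

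The 16 other effectors had 6 rises in K27M cells, led by the helicase gene *Ddx60* at 2.54 and by *Oasl1* at 2.45, and 15 falls in EED-null cells. *Ifitm1*, whose protein hinders the entry of viruses, went the opposite way: it fell by 1.53 in K27M cells and rose by 2.35 in EED-null cells, with values of 21.6 and 26.6 in control, 4.64 and 12.2 with K27M, and 129 and 123 in EED-null libraries. The 4 antigen presentation genes differed by less than 2-fold in K27M cells, from -0.21 for *Tap2* to 0.70 for *H2-K1*, and *Psmb8*, *Tap1* and *Tap2* fell in EED-null cells. Altogether 11 of the 30 genes rose and 1 fell in K27M cells, against 41.4% and 20% of all listed genes. In EED-null cells 1 rose and 27 fell, against 39.9% and 25.1%. Rises with K27M were thus no more frequent among the 30 than over all listed genes. The median of the 30 log2 differences from control was 0.77 with K27M and -2.04 in the EED-null line. Over all listed genes these medians were 0.58 and 0.40.

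**Figure D5:**
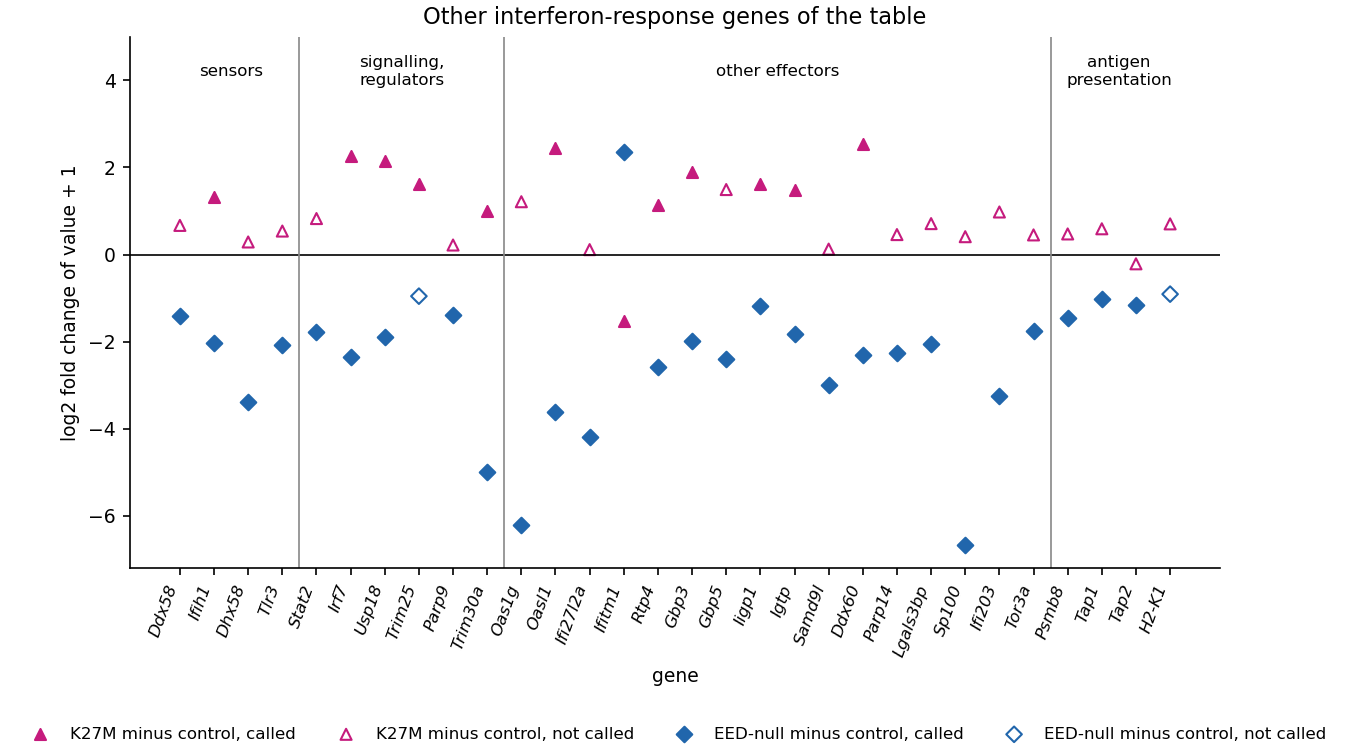
Log2 fold change of value + 1 against control cells for the 30 other interferon-pathway genes in the table, grouped by role, in K27M cells (triangles) and EED-null cells (diamonds), filled where called changed. *Ifitm1* is the gene with the opposite directions, at -1.53 and 2.35, and 27 of the EED-null points are called below 0.

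The listed genes whose log2(value + 1) over the 8 libraries was most like the mean standardized profile of the members were *Ifih1* (Pearson's r = 0.999), *Igtp* (0.996), *Ddx58* (0.995), *Stat2* (0.993), *Irgm2* (0.992), *Gbp3* (0.991), *Slfn8* (0.989) and *Trim34a* (0.987). The 8 libraries form 4 groups, so these values describe mainly the order of the groups and carry no p-value. *Ddx58* encodes the sensor RIG-I, *Igtp* and *Irgm2* encode immunity-related GTPases, and *Gbp3* encodes a guanylate-binding protein. Their group means kept the order of K27M, control, EZHIP and EED-null: *Igtp*, for example, had means of 1215, 435, 163 and 121.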

How the data were processed

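The 8 RNA-seq libraries came from 4 groups of mouse embryonic fibroblasts, 2 per group. Gene-level reads were estimated by the authors using RSEM 1.2.4 and mm9, per the submitters' processing notes, and genes were chosen with EBSeq at limits of 2-fold and of posterior probability. Per the file's values, the deposited signal is the estimated reads over a size factor of the library. RNA from FFT cells was spiked in, and its use in the size factors is not given in the sources used here. The value of 1 read was taken from the steps between low values; since between 72.2% and 82.5% of a library's values came out whole, within 0.005 of a read, no count model was fitted. All sample columns of the table were used.

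Genes were tested with limma 3.58.1 (R 4.3.3) on log2(value + 1), which understates changes of low genes. The fit had a mean per group over the 8 libraries and a single spread per gene, shared by the 4 groups. Benjamini-Hochberg adjustment was over 875 genes. A call required both 2-fold and an adjusted p-value below 0.05. Exact permutation tests were run in Python 3.11.15 with scipy 1.17.1; for 2 libraries against 2, the smallest possible p-value is 0.333. The limma fit was tested on simulated data. Gene positions and exons came from GENCODE for mm9 and promoters from RefSeq for GRCm38.p6. Members, lists and tests were chosen with earlier results of these data known. Named genes are the 10 members, the 8 listed genes with the highest Pearson's r to their mean profile, and the interferon and marker lists. The alternatives tried were each library left out, a pseudocount of 0.1 or 5, genes with a mean under 5 removed, libraries rescaled on the listed genes, limma's trend, a fit to the compared groups alone, a replicate block, and calls by the adjusted p-value alone.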

Additional observations from a re-analysis of the deposited data

How the results depend on the processing

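Under each alternative, 10 members were called lower in EED-null than in control cells and 10 higher in K27M than in EED-null cells. The number higher in K27M than in control cells was 9 with a pseudocount of 0.1, 7 after rescaling on the listed genes, and 8 to 10 with each library left out. The number lower in EED-null than in EZHIP cells was 7 by the adjusted p-value alone, 6 after rescaling, and 4 to 6 with each library left out. Of 640 single-gene values under alternatives, 622 kept their side of the threshold, 13 lost the call and 5 gained it, and none (0) of the called values changed direction. The differences between EED-null and EZHIP cells that were not called did so for *Cmpk2*, from -0.40 to 0.10, and for *I830012O16Rik*, from -0.13 to 0.26, with each library left out, and *I830012O16Rik* was at -0.012 after rescaling. A pseudocount of 5 reduced the fall in EED-null cells against control to -3.78 for *Mx1* and -4.61 for *Oas2*. The median log2 difference of the members between EZHIP and control cells moved from -1.69 to -2.0 after rescaling and ran from -1.75 to -1.62 with each library left out. With each library left out, the adjusted p-value of the pair ratio ran from 0.0381 to 0.305 for *Rsad2* and *Cmpk2*, from 0.0381 to 0.400 for *Oas1a* and *Oas2*, from 0.0762 to 0.400 for *Mx1* and *Mx2* and from 0.0571 to 0.305 for *Ifit3* and *I830012O16Rik*. The cause was not tested.

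Libraries with the same replicate number did not deviate together, with correlations between -0.0893 and 0.105 over the group pairs, so the numbers were not taken as a pairing. With the replicate block, limma gave 10, 10, 10 and 5 called members in the comparisons above, as without it, and the adjusted p-values of the pair ratios were 0.292 for *Mx1* and *Mx2* and 0.167 for the other pairs. Depth limits *Mx1*, *Oas2*, *Oas1a*, *Mx2* and *Ifi44* in EED-null cells, where between 4 and 27 pooled reads were estimated.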

Other observations

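The other interferon-pathway genes also divided between EED-null and EZHIP cells. Of the 30 in the table, 9 were called lower in EED-null than in EZHIP cells by limma, beside 19.8% of all listed genes. They were 7 of 16 other effectors and 2 of 6 signalling genes and regulators, while the 4 sensors and the 4 antigen presentation genes differed by less than 2-fold. Since the EZHIP libraries took part in choosing the table, these counts are not independent support. *Sp100*, which encodes a nuclear body protein, fell by 3.04 and was at 24.3 and 28.5 in EZHIP and 2.77 and 1.94 in EED-null libraries. *Ifi27l2a* fell by 2.81, from 198 and 259 to 31.9 and 31.0. *Trim30a* fell by 2.53, from 80.3 and 69.1 to 12.5 and 11.6. In contrast, *Psmb8*, a subunit of the immunoproteasome, was at 156 and 161 in EZHIP and 162 and 172 in EED-null libraries, a log2 difference of 0.08.

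Within the *Oas* cluster, *Oas1g*, the neighbour that shares windows with *Oas1a*, was listed at 0 and 7.80 in EZHIP and at 0 and 2.55 in EED-null libraries, against 138 and 139 in control and 308 and 339 in K27M libraries. Its fall from control in EED-null cells was called, at -6.21 (adjusted p = 0.00173 from limma). The difference of 1.21 between K27M and control cells was not called (adjusted p = 0.325 from limma). Nor was that of -0.65 between EED-null and EZHIP cells (adjusted p = 0.595 from limma). The split of reads between *Oas1g* and *Oas1a* is uncertain.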
